A study of Mus musculus with 2 samples.

Results

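The cells described here were monocytes of injured mouse muscle that combined the transcripts of Plac8 and Ly6c2 with few neutrophil granule transcripts and few MHC class II transcripts. A cell was a member when Plac8 made up at least 0.1% of its unique molecular identifiers (UMIs, the count of distinct captured mRNA molecules), when it held at least 2 Ly6c2 UMIs, when S100a8 and S100a9 together stayed under 2% of its UMIs, and when Cd74, H2-Aa, H2-Eb1 and H2-Ab1 together stayed under 0.5%. By that rule 630 of 11362 cells were members, 237 of 6735 on day 1 and 393 of 4627 on day 3. The measured values of these genes chose the cells, so their levels are given as a description. Ifitm6, Ccr2 and Hopx, also named as markers of these cells, had no part in the rule.

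The study injected 100 µL of 1.2% BaCl2 in PBS, a chemical that kills muscle fibres, into the right quadriceps of wild-type male C57BL/6J mice aged 14 weeks, and collected the muscle on day 1 and on day 3. Each day was 1 library of live cells pooled from 5 mice, sorted by scatter to leave out dead cells, doublets and debris, and frozen before 10x Genomics capture. No uninjured library was analysed here. With 1 library per day there was no replicate of a day, so no test was possible. A difference between days cannot be told apart from a difference between libraries or pools of mice. The barcode lists of the days also differed in length, so a difference in capture chemistry cannot be told apart from the day either. Every interval in parentheses after a level, share or ratio is an exact 95% interval that covers counting error only.

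Classical monocytes are made in the bone marrow, carry high surface Ly6C in the mouse and use the chemokine receptor CCR2 to leave the marrow and enter inflamed tissue. In injured muscle they arrive after neutrophils and give rise to macrophages, first ones that clear debris and release inflammatory cytokines and later ones that accompany repair. Nonclassical monocytes, the patrolling kind, carry little Ly6C and more of the fractalkine receptor CX3CR1. Interferon from neighbouring cells can switch on a shared set of antiviral genes in monocytes.

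The members were sequenced to similar depths on both days. On day 1 they held 1050 to 48635 UMIs, with a median of 10313, and on day 3 they held 1779 to 31941, with a median of 8964. Summed over members this gave 2614675 UMIs on day 1 and 3703568 on day 3, and levels below are UMIs of a gene per 1000000 UMIs of those sums (CPM). The median share of mitochondrial UMIs was 2.55% on day 1 and 4.21% on day 3, and the macrophages of the same libraries moved alike, from 2.54% to 4.15%. No cell barcode was called in both libraries.

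The members made up 3.52% (3.09 to 3.99) of all cells on day 1 and 8.49% (7.71 to 9.33) on day 3, a difference of 4.97 percentage points (4.06 to 5.92). Neutrophils, taken as cells with at least 2% S100a8 and S100a9 and a UMI of Csf3r, went from 1654 to 111 cells over the same interval, which alone raises the share of every other class. Among members and macrophages only, members were 8.82% (7.77 to 9.95) on day 1 and 14.7% (13.4 to 16.1) on day 3. Macrophages here were non-member cells with a UMI of both Adgre1 (F4/80) and Fcgr1 (CD64), under 2% S100a8 and S100a9 and no Pdgfra, 2451 cells on day 1 and 2275 on day 3. This class was not cleared of monocytes that missed the rule, and single cells in it held up to 37 and 65 Ly6c2 UMIs. How many monocytes it held was not tested, which bears on this share and on every ratio over macrophages below. Other settings of the rule and of the cell call gave 1.71% to 5.14% on day 1 and 5.25% to 11.8% on day 3, and the share was higher on day 3 under each of those tried.

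The rule drew lines through a continuum. Of the cells that passed everything else, 31 members and 34 non-members on day 1 had a Plac8 share between 0.08% and 0.12%, and on day 3 these were 31 and 27. At the Ly6c2 line, 44 members on day 1 held exactly 2 UMIs and 47 otherwise matching cells held 1, against 29 and 54 on day 3. Few cells lay near the S100a8 and S100a9 line, with 5 members and no other cell between 1.5% and 2.5% on day 1, and 3 and 4 on day 3. The MHC class II line, between 0.4% and 0.6%, had 1 member and 4 others on day 1 and 5 and 6 on day 3. Plac8 was the requirement most often missed alone, by 532 cells on day 1 and 493 on day 3.

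Plac8, a small cysteine-rich protein of myeloid cells, is annotated on GRCm38 at chr5:100553725-100572245 on the minus strand. In the members its summed level was 2260 CPM on day 1 and 2538 CPM on day 3, and the median member gave it 0.190% and 0.237% of its UMIs. Ly6c2, which encodes the Ly6C surface antigen by which these monocytes are sorted, lies at chr15:75108158-75111970 on the minus strand. Its level was 700.3 CPM on day 1 and 1308 CPM on day 3, with a median of 6 and 8 UMIs per member. The close paralog Ly6c1, at chr15:75044018-75048830, gave only 12.2 and 1.89 CPM in the members against 329 and 403 CPM in fibroblasts, so the reads counted for the pair were split by cell class, although the counting could have placed some reads of one in the other.

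The markers that the rule did not use were present. Ifitm6, a member of the interferon-induced transmembrane family at chr7:141015699-141017924, had a UMI in 94.1% of members on day 1 and 78.4% on day 3, against 32.2% and 16.9% of macrophages. Fibroblasts, which should lack it and were sequenced deeper with medians of 26937 and 23395.5 UMIs, held it in 2.11% and 2.94%. With each cell thinned to 2000 UMIs, which left out 1 member per day, the shares were 69.1% and 42.6% of members and 0.424% and 0.185% of fibroblasts. Ccr2, at chr9:124101950-124113557, was found in 97.0% and 97.7% of members and in 6.13% and 2.76% of fibroblasts (67.8% and 70.2% against 0.636% and 0.369% after thinning). Hopx, an atypical homeodomain protein gene at chr5:77086988-77115121, was found in 66.2% and 39.2% of members and in 6.98% and 8.46% of fibroblasts (27.1% and 12.8% against 0.424% and 0.923% after thinning). Each of these shares lay above its fibroblast value at both depths, which does not separate classical monocytes from other leukocytes. Of the 5 named markers, 4 on day 1 (all but Ccr2) and 5 on day 3 were at least 2-fold above macrophages. For Plac8 and Ly6c2 this follows from the rule. The label of classical monocytes is used here as a name for the cells that met the rule.

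The levels of these markers differed between the days. Ifitm6 was 799.7 CPM (765.8 to 834.7) in the members on day 1 and 364.5 CPM (345.3 to 384.5) on day 3, a log2 ratio of -1.13 (-1.23 to -1.03). Hopx was 154.9 CPM on day 1 and 77.2 CPM on day 3, a log2 ratio of -1.003 (-1.228 to -0.782) that sat at the 2-fold line and was -0.98 without the cells left out in the second count described below. Ccr2 in the members was 575.6 and then 753.1 CPM, a log2 ratio of 0.39 (0.30 to 0.48), while in the macrophages it was 362 and 218 CPM.

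**Figure D1:**
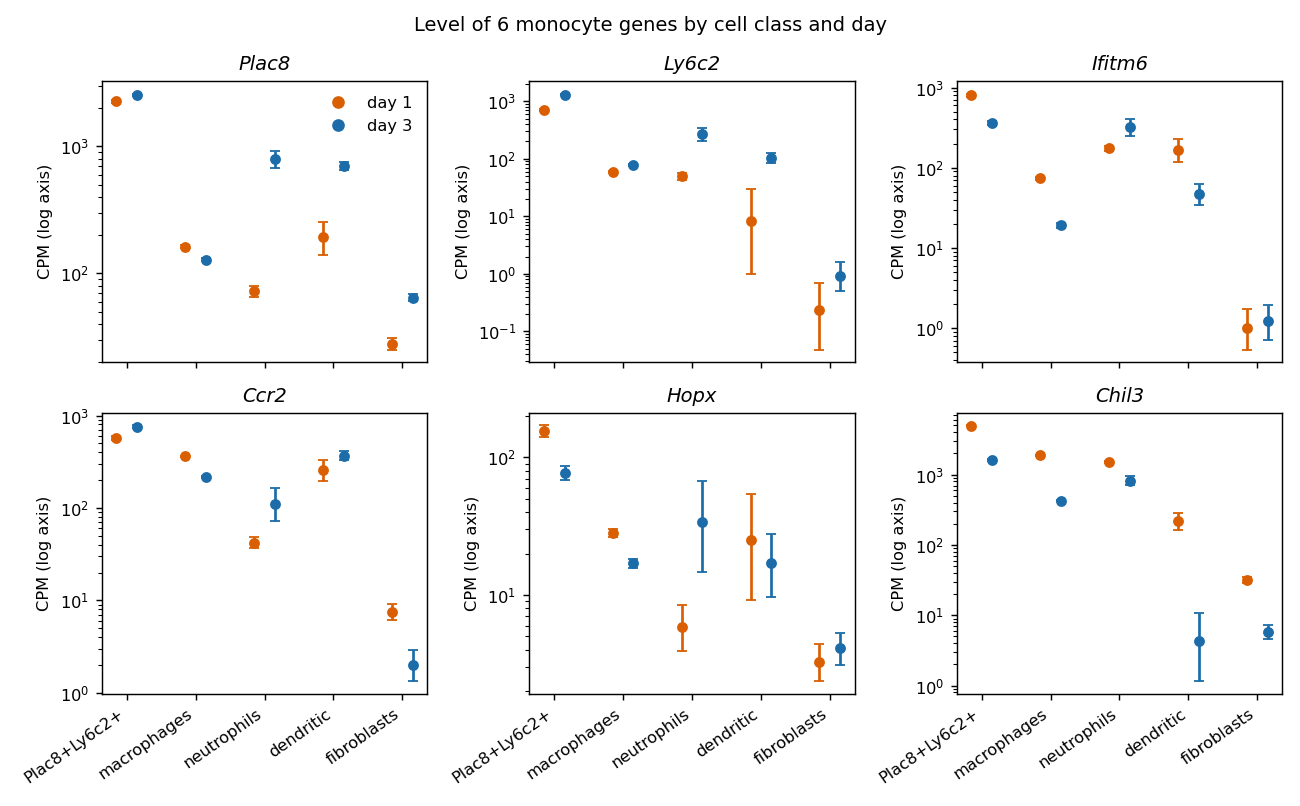
Levels of Plac8, Ly6c2, Ifitm6, Ccr2, Hopx and Chil3 in the member cells (labelled Plac8+Ly6c2+), macrophages, neutrophils, dendritic cells and fibroblasts on day 1 and day 3, in CPM of summed UMIs on a log axis, with bars for exact 95% Poisson intervals (1 library per day). Plac8 and Ly6c2 chose the cells. Ifitm6 in the members was 799.7 CPM on day 1 and 364.5 CPM on day 3, above the macrophages' 73.7 and 19.1 CPM.

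Transcripts of other cell types were counted in the members to see what else the rule took in. Ly6g, a neutrophil surface gene outside the list of 14 neutrophil genes, had 0 UMIs on day 1 and 1 on day 3. Of the 14, Cxcr2 had 8.41 and 1.89 CPM and Retnlg 8.03 and 0 CPM. Other genes of the list were higher. At least 2 UMIs of the list were found in 91.6% and 71.5% of members. Of its tested genes, 6 of 8 on day 1 and 6 of 6 on day 3 were at least 2-fold above macrophages, with 0 lower. Over all genes the shares above were 6.4% and 8.78%. Granule genes were present. Mmp8, the neutrophil collagenase, reached 217.2 CPM (199.7 to 235.9) in the members on day 1, above the 57.3 CPM (50.7 to 64.5) of the neutrophils themselves, and 115.8 CPM on day 3, when the neutrophils had 123.8 CPM. Prtn3, the granule protease proteinase 3, was found in 29.96% and 28.50% of members at 57.4 and 51.8 CPM, with 10.0 and 0 CPM in neutrophils and 9.16 and 3.85 CPM in macrophages. Other genes of promyelocytes were nearly silent, since Mpo had 0 and 2 UMIs and Elane 3 and 12.

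Fibroblast transcripts were more widely spread on day 3. At least 2 UMIs of the fibroblast list were found in 3 members on day 1 and 49 on day 3 (12.5%), against 28 and 553 macrophages (1.14% and 24.3%), while 214 and 217 members held none. At least 5 UMIs were found in 2 and 4 members, with a highest count of 213 and 429. Transcripts of lymphoid and endothelial cells were rarer, with at least 2 UMIs of the natural killer and T cell list in 3 and 12, of the B cell list in 0 and 1, and of the endothelial list in 2 and 6. Muscle and erythrocyte lists reached 2 UMIs in 0 members on both days. Siglech, a defining gene of plasmacytoid dendritic cells that also express Plac8 and Ly6c2, had a UMI in 2 members on day 1 and 8 on day 3, and 6 and 20 members held at least 5 UMIs of the whole list of that type. So did 69 of 2451 and 268 of 2275 macrophages, so a count over the whole list is not particular to that type. The members with a Siglech UMI or 5 fibroblast UMIs were left out in a second count, chosen after the data were seen, which kept 233 and 381 cells.

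Between the days, 5603 genes had at least 100 UMIs in the members and were compared. At least 2-fold higher CPM on day 3 was seen for 612 genes (10.9%) and at least 2-fold lower for 157 (2.8%), around a median log2 ratio of 0.23. With all ratios centred on that median the counts were 385 higher and 262 lower. Without the cells that carried fibroblast or Siglech UMIs they were 597 and 147. The gene lists were written with earlier results of these data known and are read against those shares.

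**Figure D2:**
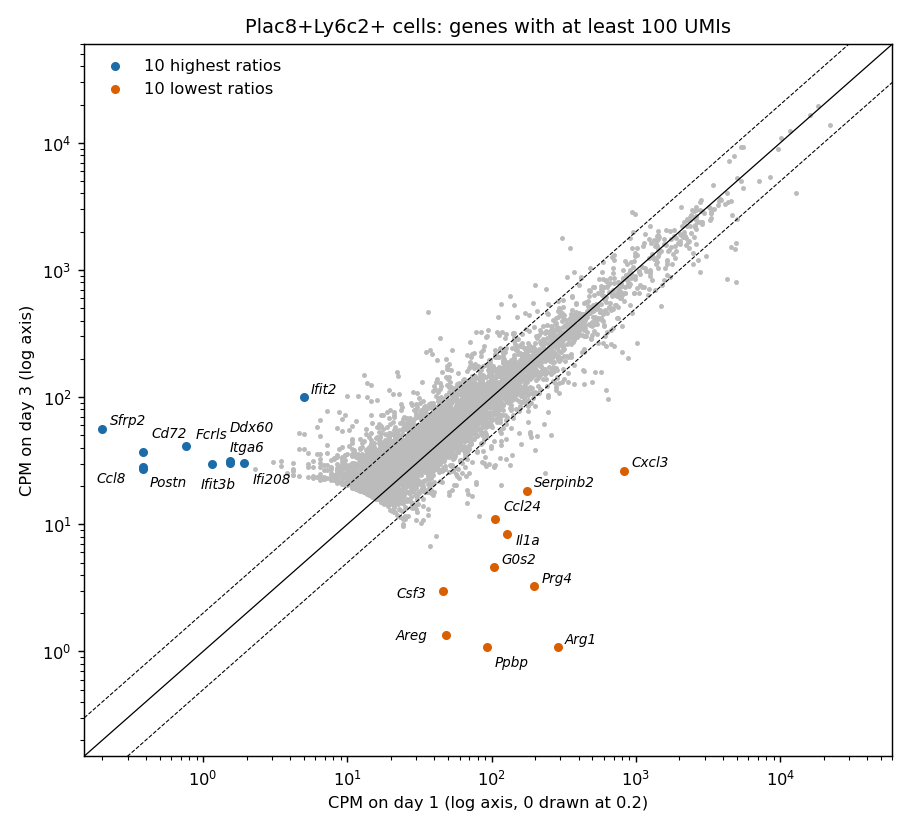
CPM of each gene with at least 100 UMIs in the member cells, day 1 across and day 3 up, on log axes, with the 10 highest and 10 lowest ratios coloured and named and a value of 0 drawn at 0.2. Of 5603 genes, 612 lay at least 2-fold above the diagonal and 157 at least 2-fold below it.

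Interferon-responsive genes were mostly higher on day 3. Of 27 such genes tested, 24 were at least 2-fold higher on day 3 and 0 were lower, against 10.9% of all genes, with a median log2 ratio of 1.51. Summed, the list came to 3104 and 8534 CPM in the members and to 1487 and 3089 CPM in macrophages, whose median ratio was 1.45. Ifit2, one of the IFIT proteins that block translation of viral RNA, was 4.97 CPM on day 1 and 99.6 CPM on day 3, a log2 ratio of 4.27 (3.53 to 5.25). On day 1 a UMI of it was found in 0.844% of members, with 53.8% of its 13 UMIs in 1 cell, and on day 3 in 26.0%. Ifit3 went from 34 to 555 UMIs (log2 ratio of CPM 3.51) and Ifit1 from 11.9 to 102.9 CPM (3.10), again from 4.22% and 3.80% of members to 31.8% and 26.7%.

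Genes that were already abundant on day 1 differed by less. Isg15, a ubiquitin-like modifier, was 239.8 CPM on day 1 and 709.0 CPM on day 3, a log2 ratio of 1.56 (1.44 to 1.69). Irf7, the factor that amplifies type I interferon responses, was 192.8 and 550.8 CPM (1.51). Ifi27l2a, a small interferon-inducible mitochondrial protein, was the most abundant of the list at 990.9 and 2738 CPM (1.47). Rsad2, the antiviral enzyme viperin, was 43.6 CPM on day 1, where 44.7% of its UMIs were in 1 cell, and 290.8 CPM on day 3 (2.73). The 3 tested genes under 2-fold were Irf1 at 0.25 (-0.11 to 0.63), Ifi204 at 0.71 and Zbp1 at 0.94.

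The difference was present in the median member. The interferon list took up a median of 0.230% of a member's UMIs on day 1 and 0.649% on day 3. In members thinned to 2000 UMIs the median was 5 UMIs of the list on day 1, over a range of 0 to 40, and 13 on day 3, over a range of 0 to 123. The ranges overlapped, and on both days some thinned members held none, although 0 members lacked the list before thinning. Cxcl10, a chemokine that draws activated T cells and natural killer cells, was one list gene whose ratio was unlike that of the macrophages, at 83.8 and 328.3 CPM in the members (1.97) and 115.2 and 140.2 CPM in the macrophages (0.28).

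The promoters of these genes were examined as a description. The list was written from known interferon-responsive genes, so a high share of interferon motifs follows from that choice. It is no evidence about the difference between days. Upstream sequence of 250 bases from RefSeq (build GRCm38.p6) was matched for 21 of the 27 genes and searched on both strands for GAAA, any 2 bases and GAAA again, the core of the interferon-stimulated response element that interferon-activated factors bind. The core was in 11 of the 21 (52.4%), in 936 of all 27025 genes with a promoter (3.46%) and in 181 of the 4515 matched genes tested between days (4.01%). The gamma-activated sequence core, TTCNNNGAA, was in 4 of the 21 (19.0%) and in 6.62% of tested genes. For the pro-inflammatory and classical monocyte lists the response element core was in 0 of 10 each, and for MHC class I genes in 3 of 11 (27.3%). The last 150 bases before the start of the 4 list genes of highest ratio that held it there are shown 5′ to 3′ on the gene's own strand, with the core on either strand in capitals. They are Ifit3 at chr19:34583379-34583528 (plus strand), Ifit1 at chr19:34640739-34640888 (plus), Rsad2 at chr12:26456453-26456602 (minus) and Isg15 at chr4:156200819-156200968 (minus).
Ifit3: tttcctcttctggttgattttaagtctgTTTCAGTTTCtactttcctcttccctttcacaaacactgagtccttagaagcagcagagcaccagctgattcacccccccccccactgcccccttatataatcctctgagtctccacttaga
Ifit1: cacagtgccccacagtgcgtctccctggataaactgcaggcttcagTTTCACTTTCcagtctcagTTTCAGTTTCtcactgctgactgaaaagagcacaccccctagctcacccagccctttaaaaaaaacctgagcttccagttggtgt
Rsad2: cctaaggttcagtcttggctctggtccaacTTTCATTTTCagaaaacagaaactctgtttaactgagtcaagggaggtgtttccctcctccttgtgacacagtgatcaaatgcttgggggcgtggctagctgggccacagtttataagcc
Isg15: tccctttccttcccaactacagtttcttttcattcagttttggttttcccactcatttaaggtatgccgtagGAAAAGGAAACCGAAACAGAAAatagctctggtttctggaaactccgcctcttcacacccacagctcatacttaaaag
The match began 122 bases before the start in Ifit3 and 120 in Rsad2. Ifit1 held it at 104 and 85 bases, and Isg15 held 3 overlapping matches between 78 and 66 bases before the start. A match is a description of these letters and does not show binding.

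Inflammatory transcripts went the other way. A set of 15 genes that the study called pro-inflammatory, chosen on these same samples and so no independent evidence of direction, had 0 genes at least 2-fold higher and 12 lower on day 3, against 2.8% of all genes, with a median log2 ratio of -2.33. Il1b, the cytokine interleukin 1 beta, stood at 4285 CPM in the members of day 1 and 852.7 CPM in those of day 3 (-2.33), and 7766 and 275.9 CPM in the macrophages (-4.82). Cd14, the co-receptor for bacterial lipopolysaccharide, was 4935 and 807.9 CPM (-2.61) in the members. Cxcl3, a neutrophil attractant, was 830.3 and 26.2 CPM (-4.98), in 58.6% and 7.12% of members. Arg1, which breaks down arginine, was 286.8 CPM on day 1 and 1.08 CPM on day 3 (-7.88), but on day 1 it was in 22.4% of members, 18.1% of its UMIs were in 1 cell, and barcodes without cells (those with at most 100 UMIs, a measure of free RNA) held 716 CPM of it.

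The drop was smaller in the members than in the macrophages, so the order of the classes changed. The study picked the 15 genes as markers of its pro-inflammatory macrophage subcluster, the largest on day 1, against its other subclusters, monocytes included. A higher day 1 level in macrophages and a larger drop there can follow from that choice, so this order is a description only. Summed over the 15 genes, members had 30413 CPM and macrophages 45435 CPM on day 1, a log2 ratio of -0.58, and 9093 and 4971 CPM on day 3, a log2 ratio of 0.87. Thbs1, which encodes the matrix protein thrombospondin 1, was 4884 and 1466 CPM in the members and 4353 and 539 CPM in the macrophages. Clec4e, the receptor Mincle for debris of dead cells and for mycobacterial lipid, was 1358 and 699.9 CPM in the members and 1408 and 152.6 CPM in the macrophages. Cebpb, a transcription factor of inflammatory myeloid genes, was 5048 and 2515 CPM in the members (-1.01, at the 2-fold line) and 4222 and 971.9 CPM in the macrophages. How much of each difference came from the changing makeup of the macrophage class was not tested.

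Chemokines went in both directions. Of 24 cytokines and chemokines tested, 3 were at least 2-fold higher on day 3 (Cxcl10, Cxcl16 and Ccl8) and 10 lower, with a median of -0.92. Cxcl2, the most abundant, was 12858 CPM on day 1 and 4025 CPM on day 3 (-1.68). Ccl4, a chemokine for monocytes and T cells, was 679.6 and 1266 CPM in the members (0.90) and 1454 and 959.7 CPM in the macrophages (-0.60). Ccl12, a ligand of CCR2, was 104.8 and 207.6 CPM in the members (0.98) and 367 and 140.6 CPM in the macrophages (-1.38). Ccl2, the main CCR2 ligand, was 1557 and 840.8 CPM in the members (-0.89) and 4382 and 804 CPM in the macrophages (-2.45). On day 1, 0 of 22 chemokine and cytokine genes were at least 2-fold above macrophages and 16 were below, and on day 3 these were 2 and 3 of 21. Over all genes the shares above and below macrophages were 6.4% and 2.72% on day 1 and 8.78% and 3.2% on day 3.

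Of 11 classical monocyte genes tested, 1 was at least 2-fold higher on day 3 and 4 were lower, with a median of -0.64. Ms4a4c, a membrane protein of the MS4A family, was the higher one, at 477.3 and 1034 CPM (1.11) against 158.5 and 142.9 CPM in macrophages (-0.15). Chil3, a chitinase-like lectin that the pro-inflammatory set also held, was 4919 and 1623 CPM (-1.60). Mcemp1, a membrane protein of mast cells and monocytes, was 246.3 and 104.8 CPM (-1.23), and Hopx and Ifitm6 were the remaining lower ones. Lyz2, lysozyme, stayed the most abundant of them at 22194 and 13908 CPM (-0.67). Of the genes that the study used to describe a monocyte cluster, again chosen on these samples, 18 remained without Plac8 and Ly6c2, of which 7 were at least 2-fold higher and 0 lower, with a median of 0.86.

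Other surface families showed members that differed sharply from their neighbours. Ly6a (Sca-1), a stem cell and interferon-inducible antigen, was 36.0 CPM on day 1 and 468.2 CPM on day 3, a log2 ratio of 3.70 (3.40 to 4.02), in 13.9% and 46.6% of members. On day 1, 26.6% of its UMIs were in 1 cell, and without the fibroblast- and Siglech-bearing cells its ratio was 4.47. Barcodes without cells held 285.9 and 477.7 CPM of Ly6a, a level near that of the members on day 3, while macrophages of the same library had 58.0 CPM. Ly6e, a broadly expressed relative, was 956.9 and 1977 CPM (1.05). In the Ifitm family, Ifitm3 was nearly level at 5027 and 5340 CPM (0.09), whereas Ifitm1 (-1.05) and Ifitm6 (-1.13) were lower on day 3.

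Genes of adhesion and chemotaxis included 4 of 17 at least 2-fold higher (Itga4, C3ar1, Itgb1 and Cx3cr1) and 2 lower (Cd177 and Ccr1), with a median of 0.05. Cx3cr1, the fractalkine receptor, was 7.27 CPM on day 1 and 77.2 CPM on day 3, a log2 ratio of 3.37 (2.74 to 4.16), in 7.17% and 29.5% of members. The macrophages had 7.09 and 145.9 CPM of it. Of the 7 nonclassical monocyte genes tested, Cx3cr1 and Pou2f2, a transcription factor, were the only ones at least 2-fold higher (0 lower), and the median was 0.31. That median was 0.05 without the fibroblast- and Siglech-bearing cells and ran from -0.13 to 0.61 over all alternatives. Ccr1, a receptor for several inflammatory chemokines, was 588.2 and 268.7 CPM (-1.13) in the members.

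Transcripts of tissue macrophages were present at a lower level than in macrophages. Of 11 macrophage genes tested, 6 were at least 2-fold higher on day 3 (Mrc1, C1qa, C1qb, C1qc, Folr2 and Maf) and 0 lower, with a median of 1.58. C1qb, a chain of the complement initiator C1q, stood at 201.2 and 760.9 CPM in the members (1.92), in 15.6% and 38.9% of them, and 1004 and 2606 CPM in macrophages. Barcodes without cells held 672.8 and 959.8 CPM of C1qb. Mrc1, the mannose receptor CD206, was 49.3 and 175.0 CPM in the members (1.82) and 513.7 and 410.2 CPM in macrophages. Taken as a sum, the list was 3988 and 6038 CPM in the members and 8288 and 18784 CPM in macrophages. Adgre1 and Fcgr1 are in the list and also chose the macrophage class, so part of that gap follows from the choice. Among 9 genes of repair macrophages 4 were higher (Gpnmb, Lpl, Gdf15 and Trem2) and 2 lower (Cd36 and Cd9), with a median of 0.51. Over all alternatives, one of which subtracted free RNA, the median of the macrophage list ran from 0.86 to 1.62. What part of each gene's counts came from free RNA or from maturing cells was not tested.

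Sensing and transcription factor genes split. Of 17 pattern recognition genes, 5 were at least 2-fold higher on day 3 and 3 lower, with a median of -0.42. Tlr7, the endosomal receptor for single-stranded RNA, was 17.2 and 59.7 CPM (1.78) and the C-type lectin Clec4a3 was 182.8 and 441.2 CPM (1.27). The lower ones were Cd14, Clec4d (494.5 and 131.0 CPM, -1.92) and Trem1, an amplifier of inflammatory signals (183.2 and 52.9 CPM, -1.79). Of 26 transcription factors, Klf2 (88.7 and 251.4 CPM), Maf (log2 ratio 1.58), Irf8 (1.29) and Klf6 (1.06) were higher and Cebpb (-1.01) and Id2 (-1.19) lower, around a median of -0.08. Irf8, needed for the monocyte and dendritic lineages, was 69.2 and 169.6 CPM. Of 13 genes of MHC class I and its peptide supply, 5 were higher (Nlrc5, Psmb9, Tap1, H2-Q7 and H2-T22) and 0 lower, with a median of 0.56.

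Heat shock and immediate early genes did not move as a block. Of 18 tested, 7 were at least 2-fold higher and 2 lower (Nfkbia and Ier3), with a median of 0.64. Hspa1b and Hspa1a, near-identical copies of the inducible chaperone HSP70 between which reads may be split, were 307.1 and 1783 CPM (2.54) and 346.9 and 1493 CPM (2.11). Hspa1b was found in 29.5% of members on day 1 and in 72.5% on day 3, and in macrophages its level was 403.3 and 825.7 CPM (1.03). Without the fibroblast- and Siglech-bearing cells the ratio of Hspa1b in the members was 2.69. Atf3, a stress-induced repressor, was 133.9 and 628.3 CPM (2.23), and Fosb was 116.6 and 536.8 CPM (2.20). Nr4a1, an orphan nuclear receptor of the same early class, did not follow, at 247.8 and 199.3 CPM (-0.31).

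Most metabolic genes differed by less than 2-fold, while most genes of matrix, proteases and coagulation reached it. Those past it were mostly lower on day 3, except in the lysosome and lipid list. Of 18 glycolysis and hypoxia genes, 0 were at least 2-fold higher and 4 lower, with a median of -0.62, among them the glucose carrier Slc2a1 (135.4 and 56.7 CPM, -1.25) and Hilpda, a lipid droplet protein induced by hypoxia (183.2 and 51.0 CPM, -1.84). Genes of arginine, iron and antioxidant metabolism had 0 of 14 higher and 6 lower (median -0.80), and 17 genes of matrix, proteases and coagulation had 1 higher, Timp2, and 8 lower (median -0.91). Fn1, fibronectin, was 1501 and 517.6 CPM in the members (-1.54) and 2770 and 419.0 CPM in macrophages (-2.72). Lysosome and lipid genes had 5 of 18 higher and 0 lower (median 0.44), and survival and growth factor receptor genes 0 of 18 higher and 3 lower (median -0.33). Of the latter, Bcl2a1d was 82.2 and 11.6 CPM (-2.81), with reads that may be split among its near-identical copies.

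Of 8 neutrophil genes tested, 0 were at least 2-fold higher on day 3 and 5 lower (Il1r2, G0s2, Lcn2, Hdc and Cd177), with a median of -1.56, and the list summed to 1767 and 677 CPM. Il1r2 encodes a decoy receptor for interleukin 1, Hdc the enzyme that makes histamine and Cd177 a surface protein. The granule genes Mmp8 (-0.91) and Prtn3 (-0.15) did not reach 2-fold. Lcn2, an iron-scavenging antibacterial protein, was 799.7 and 226.5 CPM (-1.82), against 1823 and 982.1 CPM in neutrophils and 273.4 and 51.5 CPM in barcodes without cells. Neutrophils made up 24.6% of cells on day 1 and 2.40% on day 3. Free RNA, estimated from fibroblast genes as 9.21% and 4.80% of the members' UMIs, was subtracted in an alternative. That estimate rests largely on few cells and can be too high. Of the 266 and 960 UMIs of the fibroblast list in the members, 1 cell held 213 on day 1 and 1 held 429 on day 3. In macrophages the same estimate was 2.84% and 3.08%. Over all alternatives the Lcn2 ratio ran from -2.09 to -1.60. The part of free RNA from neutrophils alone was not tested. The cell cycle list had 1 of 3 tested genes higher, Stmn1 (7.27 and 29.2 CPM), and in sum gave 238 and 394 CPM in the members against 210 and 1645 CPM in macrophages. Ribosomal protein genes were level, with 0 of 80 past 2-fold in either direction and a median of -0.13, while 3 of 12 mitochondrial genes were higher and 0 lower, with a median of 0.71.

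**Figure D3:**
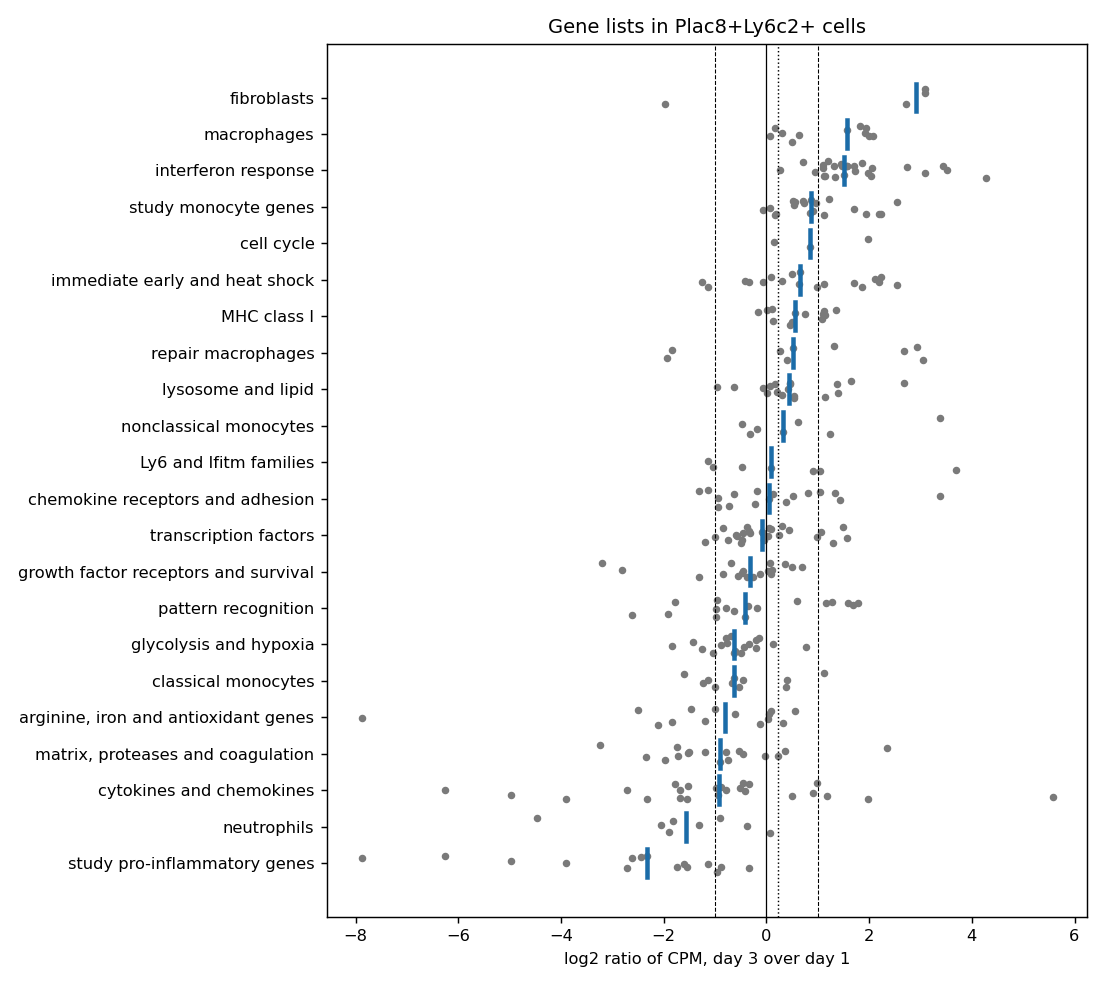
Log2 ratio of CPM, day 3 over day 1, for each tested gene of each list in the member cells (grey points), with the list's median as a bar, dashed lines at 2-fold and a dotted line at the median of all genes tested. Lists with at least 3 tested genes are drawn. The interferon response list had a median of 1.51 with 24 of 27 genes at least 2-fold higher, and the study's pro-inflammatory genes had a median of -2.33 with 12 of 15 at least 2-fold lower.

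The extreme ratios over all genes held several that rested on few cells. Among the 10 highest, Sfrp2, a secreted Wnt modulator of fibroblasts, had 0 UMIs on day 1 and 208 on day 3 (at least 48.9-fold higher, against a floor of 3 counts over the day), but 44.7% of the 208 were in 1 cell and barcodes without cells held 474.8 CPM. Postn, a fibroblast matrix protein, had 78.1% of its day 3 UMIs in 1 cell, and its ratio was 2.55 without the fibroblast- and Siglech-bearing cells (5.63 with them). Cd72, an inhibitory receptor of B cells and myeloid cells, was spread more widely, with 1 UMI on day 1 and 136 on day 3 in 12.98% of members (log2 ratio 6.01, 4.08 to 11.90). Fcrls, an Fc receptor-like gene, went from 2 to 152 UMIs, in 10.9% of members on day 3, and the others were Ccl8, Ifit3b, Ifit2, Ddx60, Itga6 and Ifi208. Among the 10 lowest were Arg1, Ppbp, Prg4, Areg, Cxcl3, G0s2, Il1a, Csf3, Serpinb2 and Ccl24. Prg4, lubricin, had 50.7% of its day 1 UMIs in 1 cell and a ratio of -2.43 without the fibroblast- and Siglech-bearing cells (-5.87 with them), and Areg, an epidermal growth factor receptor ligand, 36.2% of its 127.

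Against macrophages of the same library, 3049 genes were compared on day 1 and 4467 on day 3. Each had at least 100 UMIs in the members of that day. Genes found almost only in macrophages were thus left out, which holds down the counts of lower genes here and in the lists. At least 2-fold higher in the members were 195 genes (6.4%) on day 1 and 392 (8.78%) on day 3, and at least 2-fold lower were 83 (2.72%) and 143 (3.2%). Of the classical monocyte list, 7 of 11 were higher on day 1 and 8 of 11 on day 3, with 0 lower on either day and medians of 1.39 and 2.19. Vcan, the matrix proteoglycan versican, had a log2 ratio over macrophages of 0.54 on day 1 and 3.21 on day 3, and Lyz2 of 1.15 and 0.18. Of the interferon list, 11 of 17 were higher on day 1 and 26 of 27 on day 3, with 0 lower.

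Among the 10 genes highest over macrophages on both days were Ifitm6, Pi16, Hp, Lcn2, Lrg1, Itgal, Pglyrp1, Prtn3 and Gsr. Hp, haptoglobin, which binds free haemoglobin, was 939.3 and 457.1 CPM in the members and 116.8 and 23.5 CPM in macrophages. Itgal, the alpha chain of the integrin LFA-1, was 127.4 and 111.8 CPM against 17.5 and 14.9 CPM. Gsr, glutathione reductase, was 670.1 and 262.4 CPM against 112.1 and 28.6 CPM. Several of them are also granule genes, and neutrophils held more Lcn2, Lrg1 and Pglyrp1 than the members did.

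Among genes with at least 100 UMIs in the members on each day, the lowest on both days were Pf4, Cd63, Spp1, C1qa, C1qc, Fabp5, C1qb, Ctsd, Stab1 and Sdc4. A wider filter also let in genes with counts mainly in macrophages. The lowest were then Pf4, Ctla2a, Folr2, Fabp4, Gpnmb, Cd63, Pdpn, Ccl8, Arg1 and Nrp2. Pf4, a chemokine of platelets and macrophages, was 436.0 and 126.1 CPM in the members against 6568 and 2640 CPM. Spp1, osteopontin, was 1393 and 1837 CPM against 6799 and 12044 CPM. Ctsd, a lysosomal protease, was 824.6 and 870.5 CPM against 2756 and 6468 CPM, and of the repair macrophage list 4 of 6 and 8 of 8 genes were lower in the members.

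**Figure D4:**
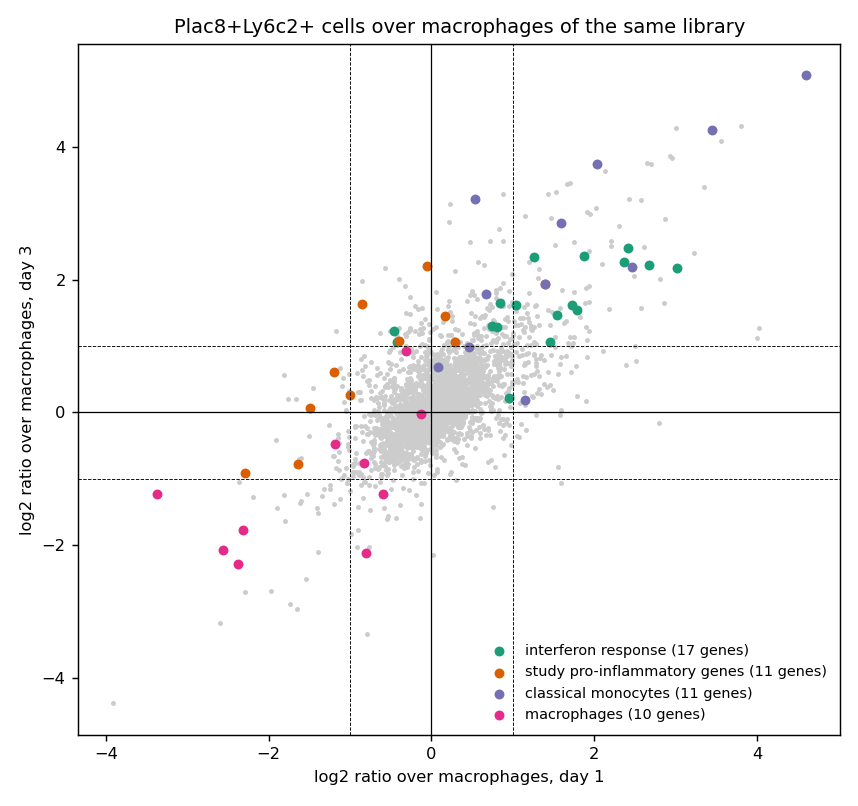
Log2 ratio of the member cells over the macrophages of the same library for genes tested on both days, day 1 across and day 3 up, with genes of named lists coloured. The classical monocyte list had medians of 1.39 and 2.19, and Ifitm6 lay at 3.44 on day 1 and 4.25 on day 3.

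The members were not alike. After thinning to 2000 UMIs, Spp1 had the highest variance over mean on both days, 23.7 on day 1 among 2414 genes with a median of 1.06. It was in 26.3% of members on day 1, with up to 69 UMIs in a cell, and in 50.8% on day 3, with up to 81. Il1b was in 69.9% of members on day 1 with up to 67 UMIs, and in 39.8% on day 3 with up to 25. Hmox1, which breaks down haem, was in 36.4% and 46.4%, with up to 51 and 43 UMIs. C1qb was in 8.90% and 28.6%, with up to 14 and 22. Prg4 also ranked high on day 1, but was in 0.847% of members.

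**Figure D5:**
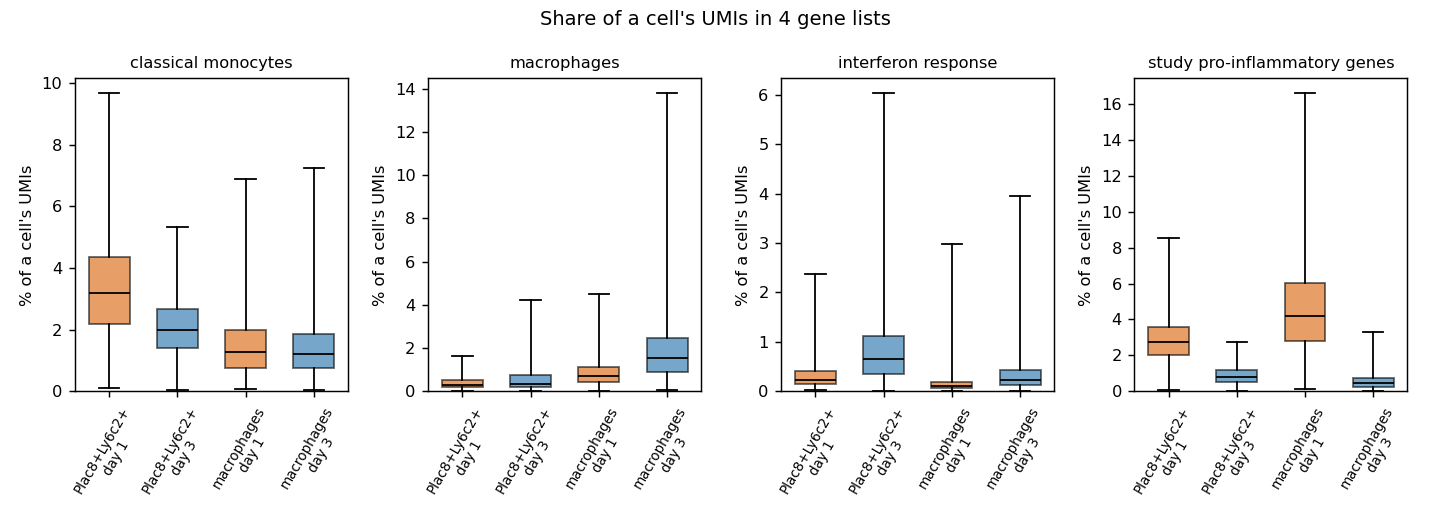
Share of each cell's UMIs in 4 gene lists, for the member cells and the macrophages on day 1 and day 3, with boxes for the quartiles, a line at the median and whiskers to the lowest and highest cell. The interferon list had a median of 0.230% in the members on day 1 and 0.649% on day 3.

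Some lists varied together across members. Over 236 members on day 1 and 392 on day 3, thinned to 2000 UMIs and sharing 1 library per day, Spearman's rho between the classical monocyte and neutrophil lists was 0.37 on day 1 and 0.33 on day 3. Between the classical monocyte and macrophage lists it was -0.07 and -0.34, and between the interferon and macrophage lists 0.25 and 0.40. These are descriptions over cells of 1 library and not over replicates.

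The methods of the study first pooled clusters rich in Adgre1 and Fcgr1 and then filtered cells on normalised values of these genes and on Pdgfra and Ly6a. The cluster step and the normalisation by SCTransform were not repeated here, so the following is a filter after that one and not the study's own set of cells. With at least 1 for Adgre1 and for Fcgr1 on the scale of the natural log of counts per 10000 plus 1, and 0 UMIs of Pdgfra and Ly6a, the filter kept 43 of the 237 members on day 1 (18.1%) and 67 of the 393 on day 3 (17.0%), against 52.3% and 43.0% of macrophages. Adgre1 reached the line in 38.4% and 53.4% of members and Fcgr1 in 62.4% and 69.5%. Members without a Ly6a UMI were 86.1% on day 1 and 53.4% on day 3, and Ly6a alone kept out 9 members on day 1 (3.80%) and 97 on day 3 (24.7%).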

How the data were processed

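Single-cell RNA of injured mouse quadriceps was measured by 10x Genomics 3′ capture, 1 library per day of 5 pooled mice. The methods of the study state v3.1 chemistry but name chip kits of different versions. Raw UMI counts per gene and barcode were deposited by the authors, made per the labels with Cell Ranger 5.0.0 on mm10, while the matrix headers name an earlier major version. The authors deposited all barcodes, not only cells. The barcode list of day 3 had 6794880 entries and that of day 1 had 737280. A difference in chemistry between days thus cannot be told apart from the day. Library totals were 74852240 UMIs on day 1 and 102565783 on day 3.

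The 7367 and 6640 barcodes with most UMIs were called, and cells were kept with at least 1000 UMIs, at least 200 genes and at most 7.5% mitochondrial UMIs. Counts were summed over members per day and divided by their total to CPM, with exact Poisson intervals. Shares have Clopper-Pearson intervals. A log2 ratio used a prior of 0.5 counts and an exact binomial interval, all at 95%. A gene was compared between days with at least 100 UMIs over both, and against macrophages with at least 100 UMIs in the members of that day. At least 2-fold was the call. Plac8, Ly6c2 and the other genes of the rule were in the counts over all genes (0 past 2-fold between days, and 4 against macrophages on day 1 and 7 on day 3) but were not among the named highest and lowest ratios, nor were mitochondrial and ribosomal protein genes. Genes named were the 10 highest and lowest ratios, list genes and markers, and a few of them are not reported here. Members and lists were chosen with earlier results of these data known. Cells were thinned to 2000 UMIs (seed 7) for shares and variation. Fibroblasts had a UMI of Pdgfra, at least 2 of Dcn and none of Ptprc, and dendritic cells a UMI of Flt3, none of Fcgr1 and at least 0.5% MHC class II UMIs. The automatic threshold of Scrublet marked 2 cells on day 1 (0.0297%) and 0 on day 3, which was taken as a failed call, so doublets were kept and the highest scores were removed as an alternative.

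The ratio step was tested on simulated data with known changes before use. For day 3 over day 1 in the members, with 5603 genes, it recovered 100% of 200 changed genes. The simulated counts were Poisson draws from the summed counts, and every planted change was well past 2-fold. They held no spread between cells or libraries, so the recovery does not cover genes that rest on few cells. Alternatives covered the cell call, each limit of the rule, doublets, depth, free RNA, scaling, filters and prior. Python 3.11.15, numpy 2.4.6, scipy 1.17.1, pandas 2.3.3, scanpy 1.11.5 and matplotlib 3.10.9 were used.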

Additional observations from a re-analysis of the deposited data

Results flagged for a closer look

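The summed pro-inflammatory genes were below the macrophages on day 1, at a log2 ratio of -0.58, and above them on day 3, at 0.87, so the members stood on opposite sides of the macrophages on the 2 days. The difference was not tested, since each day is 1 library. The genes were picked by the study as markers of a day 1 macrophage subcluster, so the order can follow from that choice. Over the alternatives the values were -0.75 to -0.46 and 0.51 to 0.90.

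Cells over the mitochondrial limit of 7.5% were left out of the comparisons above, and those up to 15% came in only under an alternative. Of these, 1 of 277 on day 1 (0.361%) and 35 of 1804 on day 3 (1.94%) met the rest of the rule.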

How the results depend on the processing

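Of the ratios recomputed under the alternatives, none past 2-fold changed sign, and 168 of 213 values that answer a comparison stayed within 1.5 times (counts) or their interval. The share of members on day 1 and day 3 was 5.03% and 10.7% with Plac8 at 0.05%, 1.71% and 5.32% with 0.2% (difference 3.61 points), 4.22% and 9.66% with 1 Ly6c2 UMI, and 1.71% and 5.25% when cells were thinned before the rule (3.55 points). It was 2.87% on day 1 with 3 Ly6c2 UMIs and 5.14% with a depth-scaled cell call (3.86 points). It was 9.75% on day 3 without the MHC class II limit (6.04 points) and 11.8% where cells under 200 genes per 1000 UMIs were dropped (7.97 points). Counts of genes higher and lower on day 3 were 385 and 262 centred on the median, 4455 and 1173 without a filter, 141 and 84 thinned after the rule and 86 and 54 thinned before it. Genes higher on day 3 were 1000 at a minimum of 50 UMIs, 320 at 200 UMIs and 360 with Plac8 at 0.2%. Thinning and higher minimums test fewer genes.

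Counts higher and lower than macrophages without a filter were 2158 and 884 on day 1 and 2449 and 1525 on day 3. Thinned after the rule they were 70 and 25, then 120 and 32, and thinned before it 35 and 14, then 50 and 22. Genes higher than macrophages on day 1 were 306 without mitochondrial and ribosomal genes and 118 at 200 UMIs. Genes lower on day 3 were 249 at 50 UMIs, 65 at 200 UMIs and 81 with Plac8 at 0.2%. The cause of the last was not tested. Over all alternatives the interferon median was 1.25 to 1.70, the pro-inflammatory -2.58 to -1.67 and the classical monocyte -0.87 to -0.57. The 2-fold call was lost under at least 1 alternative for Cebpb, Hopx, Ifit3b, Ms4a4c, Mt2, Nfkbia, Nlrc5, Pou2f2, Runx2, Serpinb2, Slc16a3, Tcf4 and the macrophage list median (lowest 0.86). Without the fibroblast- and Siglech-bearing cells, an alternative chosen after seeing the data, Mt2 was at -0.64 (from -2.51) and Prg4 at -2.43. No paired analysis was possible because each day is 1 library of different mice, and no library could be left out.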
